A study of Mus musculus with 12 samples.

Results

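Timd4, Lyve1, Folr2 and Ccr2 are 4 genes whose surface proteins are widely used to tell resident tissue macrophages from those that arrived as blood monocytes. They were taken by name and make up 4 of the 56735 gene names in the count table. All 4 had reads in every library, and all 4 were among the 13724 genes that passed the filter on low counts. The RNA came from adult mouse brains freed of choroid plexuses, from which CD206+ subdural CNS-associated macrophages (sdCAMs) were sorted, that is, leptomeningeal and perivascular macrophages. Every mouse was Mrc1CreERT2/CreERT2:R26tdT/tdT. Both copies of Mrc1, the gene of the sort marker CD206, carry a tamoxifen-inducible Cre, and both Rosa26 copies carry a tdTomato reporter that Cre switches on permanently. After tamoxifen, mice received vehicle or BLZ945 (200 mg/kg for 7 days), an inhibitor of the receptor CSF-1R that depletes macrophages, and cells were isolated 8 weeks after the treatment ended. There were 3 groups of 4 libraries, 1 library per mouse and cell fraction: tdT+ sdCAMs of vehicle-treated mice, tdT+ sdCAMs of BLZ945-treated mice, and tdT- sdCAMs of those same BLZ945-treated mice. tdT+ cells carry the label given before the depletion, while tdT- cells lack it, either because they came from unlabelled cells or because they escaped recombination. Labelling therefore depends on how completely Cre acted in CD206+ cells. The mice are called F1, F2, M1 and M2 after their labels. A BLZ945 tdT+ library and a tdT- library with the same label came from the same mouse, whereas vehicle mice were other animals. Names of the vehicle libraries carry the word pre and those of the BLZ945 libraries the word post. The labels do not say what these words stand for, and whatever else they mark cannot be told apart from the treatment.

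TIM-4, encoded by Timd4, is a receptor for phosphatidylserine with which macrophages grip dying cells. LYVE1 is a hyaluronan receptor and a homologue of CD44, and FOLR2 is the folate receptor beta, a lipid-anchored protein that binds folate. In several tissues, macrophages that carry these 3 proteins maintain themselves by local division. CCR2 is the receptor for the chemokines CCL2, CCL7 and CCL12. It draws Ly6C-high monocytes out of bone marrow and into tissue, and macrophages that carry it are in many organs replaced from blood. In the CNS, TIM-4, LYVE1 and FOLR2 mark border macrophages and are low or absent in parenchymal microglia.

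Libraries held 19969308 to 23395058 counts, and the ranges of the 3 groups overlapped. The share of counts from mitochondrial genes was 0.702% to 1.13% in vehicle tdT+, 0.515% to 0.589% in BLZ945 tdT+ and 0.324% to 0.631% in tdT- libraries. Its vehicle range lay above both others, and its part in the results was not tested. The tdTomato sequence had been added to the annotation, but it had 0 counts in all 12 libraries. A count of 0 allows a share of at most 1.28e-05% to 1.50e-05% of a library, so the reporter gave no check of the tdT labels. Intervals and limits of this kind cover counting error only. The 9 markers of CNS-associated macrophages were present in every library and summed to 65160 to 68252 counts scaled to a common library total (CPM) in vehicle tdT+, 74198 to 83016 in BLZ945 tdT+ and 51822 to 65320 in tdT- libraries. Library tdT- F2 stood apart: its 5 neutrophil markers summed to 20621 CPM, against 0.0446 to 3.5 CPM in the other 11 libraries, and its monocyte markers to 1912 CPM against 0 to 17.1. Group fold changes of Ccr2, and group differences in the ratios to Ccr2 that involve tdT- cells, are therefore also given without that library. The 6 microglia markers summed to 5429 to 7714 CPM in vehicle tdT+, 7162 to 8193 in BLZ945 tdT+ and 11560 to 21513 in tdT- libraries, and 5 of the 6 were called higher in tdT- than in BLZ945 tdT+ cells, also without tdT- F2. Of the 9 markers of CNS-associated macrophages, 2 were called lower and 0 higher in tdT- than in BLZ945 tdT+ cells, also without tdT- F2. One was Mrc1, the gene of the sort marker CD206, with a mean of 9710 normalised counts in BLZ945 tdT+ and 3318 in tdT- libraries. The other was Cd163, with 42727 and 6088. The part of either marker set in the results below was not tested. Markers of lymphatic endothelium, a tissue that also carries LYVE1, summed to at most 11.7 CPM, and its chemokine Ccl21a had 0 counts in all 12 libraries.

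The 4 genes lie in the GRCm39 annotation (GENCODE M33) on 3 chromosomes. Timd4 spans chr11:46701627-46735159 on the plus strand with 9 merged exons of 2173 bases in all. Lyve1 lies at chr7:110449814-110462446 on the minus strand (6 merged exons, 2919 bases) and Folr2 on the same chromosome and strand at chr7:101489195-101506401 (8 merged exons, 1546 bases). Ccr2 occupies chr9:123901987-123913594 on the plus strand in 3 merged exons of 6760 bases. Of the exon bases of Folr2, 975 also belong to Gm10602, a gene model on the opposite strand. Reads were counted without strand, so reads from the shared bases cannot be told apart. Gm10602 itself held 106 to 328 counts per library.

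Start regions of 3 of the 4 genes were found in the RefSeq promoter table, on build GRCm38.p6, each running from 250 bases before the start to 50 bases after it. Folr2 had a pair of start entries, and Lyve1 had none. They are shown because the 4 genes differ in opposite directions between the same cells, and because MAF factors, which bind the site searched here, are known regulators of resident macrophage genes. All motifs were searched on both strands. Capitals mark the MAF site (TGCTGA) and the AP-1 site (TGANTCA), and each sequence is written 5′ to 3′ on the strand of its gene.
Timd4, chr11:46810549-46810848, plus strand: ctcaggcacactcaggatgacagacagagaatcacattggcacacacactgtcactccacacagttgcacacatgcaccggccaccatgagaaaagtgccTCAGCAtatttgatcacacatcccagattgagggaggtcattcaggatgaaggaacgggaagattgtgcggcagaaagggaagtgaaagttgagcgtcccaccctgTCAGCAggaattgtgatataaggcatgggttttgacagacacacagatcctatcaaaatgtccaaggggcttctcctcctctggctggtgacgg
Folr2 first entry, chr7:101857141-101857440, minus strand: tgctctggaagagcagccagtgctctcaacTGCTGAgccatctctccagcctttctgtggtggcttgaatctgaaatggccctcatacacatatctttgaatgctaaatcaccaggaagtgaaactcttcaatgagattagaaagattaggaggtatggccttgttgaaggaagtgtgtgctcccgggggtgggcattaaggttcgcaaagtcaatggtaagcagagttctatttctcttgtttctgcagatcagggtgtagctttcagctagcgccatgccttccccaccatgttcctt
Folr2 second entry, chr7:101845282-101845581, minus strand: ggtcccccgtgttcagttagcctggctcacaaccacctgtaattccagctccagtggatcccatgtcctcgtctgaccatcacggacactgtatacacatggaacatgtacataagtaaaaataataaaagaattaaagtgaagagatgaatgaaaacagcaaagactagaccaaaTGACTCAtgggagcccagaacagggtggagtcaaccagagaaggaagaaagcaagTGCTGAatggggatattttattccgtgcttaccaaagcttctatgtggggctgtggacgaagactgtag
Ccr2, chr9:124101933-124102232, plus strand: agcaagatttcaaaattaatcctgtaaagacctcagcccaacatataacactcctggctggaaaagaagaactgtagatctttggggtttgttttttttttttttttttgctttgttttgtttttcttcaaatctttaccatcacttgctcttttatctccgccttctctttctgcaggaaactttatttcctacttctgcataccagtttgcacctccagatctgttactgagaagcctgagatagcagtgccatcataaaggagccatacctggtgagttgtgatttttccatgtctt
The MAF site was present 2 times in the Timd4 window, at positions -150 and -44 from the start, and once in each Folr2 window, at -220 and -19. No match was found in the Ccr2 window. Of all 32851 promoter windows, 19.5% held this site. The AP-1 site was found in the second Folr2 window, at -74, and 7.81% of all windows held it. In both Folr2 windows the MAF site shared bases with an E-box (CANNTG), a motif present in all 4 windows and in 72.3% of promoters, and the AP-1 site also shared bases with one. The letters of an IRF element (GAAANNGA, 21.0% of promoters) occurred in the Timd4, the first Folr2 and the Ccr2 window. The PU.1 letters GAGGAA were found in none of the 4 windows, against 28.3% of all promoters. The same was true of the RBPJ letters TGGGAA, which 25.6% of promoters held. A TATA box, searched as TATAAA and held by 13.6% of promoters, was also missing from the 4 windows. These are matches of letters and no measurements of binding.

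The first comparison asked how the 4 genes differed between tdT- and tdT+ sdCAMs of the same BLZ945-treated mice. Timd4, Lyve1 and Folr2 were lower and Ccr2 was higher in the tdT- cells, in all 4 mice and with no overlap between the groups. Values are normalised counts, the deposited counts divided by the size factor that DESeq2 gave to each library. A gene was called when its adjusted p was at most 0.05 and its shrunken log2 fold change was at least 1 in size.

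Timd4, the engulfment receptor, had 3465 normalised counts in F1, 5865 in F2, 6266 in M1 and 7368 in M2 in the BLZ945 tdT+ libraries (5741 ± 1645, SD, n = 4). In the tdT- libraries of the same mice it had 288, 302, 1071 and 226 (472 ± 401). The highest tdT- library, M1, stayed below the lowest tdT+ library, and the other three lay close together. Timd4 was lower by a factor of 12.2, with a shrunken log2 fold change of -3.53 ± 0.40 (SE, DESeq2 adjusted p = 3.03e-17). Without tdT- M1, the change was -4.37.

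Lyve1, the hyaluronan receptor, had 34030, 35227, 46167 and 42944 normalised counts in BLZ945 tdT+ libraries F1, F2, M1 and M2 (39592 ± 5901). The tdT- libraries had 9504, 5912, 11303 and 11834 (9638 ± 2677). The gene stayed abundant in tdT- cells but fell by a factor of 4.11, a shrunken log2 fold change of -1.99 ± 0.20 (DESeq2 adjusted p = 3.52e-21).

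Folr2, the folate receptor, had 4099, 5084, 3953 and 5052 normalised counts in the tdT+ libraries (4547 ± 605) and 2192, 1761, 1474 and 1963 in the tdT- libraries (1847 ± 305). It showed the smallest difference of the 3 resident markers, 2.46-fold, with a shrunken log2 fold change of -1.27 ± 0.16 (DESeq2 adjusted p = 2.41e-14).

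Ccr2, the chemokine receptor, went the other way. It had 1172, 1981, 847 and 856 normalised counts in tdT+ libraries F1, F2, M1 and M2 (1214 ± 533), and 6288, 12013, 5226 and 3076 in the tdT- libraries (6651 ± 3817). The lowest tdT- library, M2, was still above the highest tdT+ library, F2. Ccr2 was higher in tdT- cells by a factor of 5.48, with a shrunken log2 fold change of 2.33 ± 0.40 (DESeq2 adjusted p = 2.19e-08). Without tdT- F2, the tdT- mean was 4863 ± 1636 (n = 3) and the change was 1.86 (DESeq2 adjusted p = 3.26e-06).

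All 4 genes were thus called, 3 of them lower and 1 higher. Of the 13724 genes tested, 1.06% were called lower and 1.19% higher, and 4.79% had every tdT- library below every BLZ945 tdT+ library, with 4.56% in the opposite order. The median shrunken log2 fold change of all tested genes was 0.00. In bulk RNA, fewer cells that carry a transcript and less of it per cell cannot be told apart, and this holds for each comparison here.

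**Figure D1:**
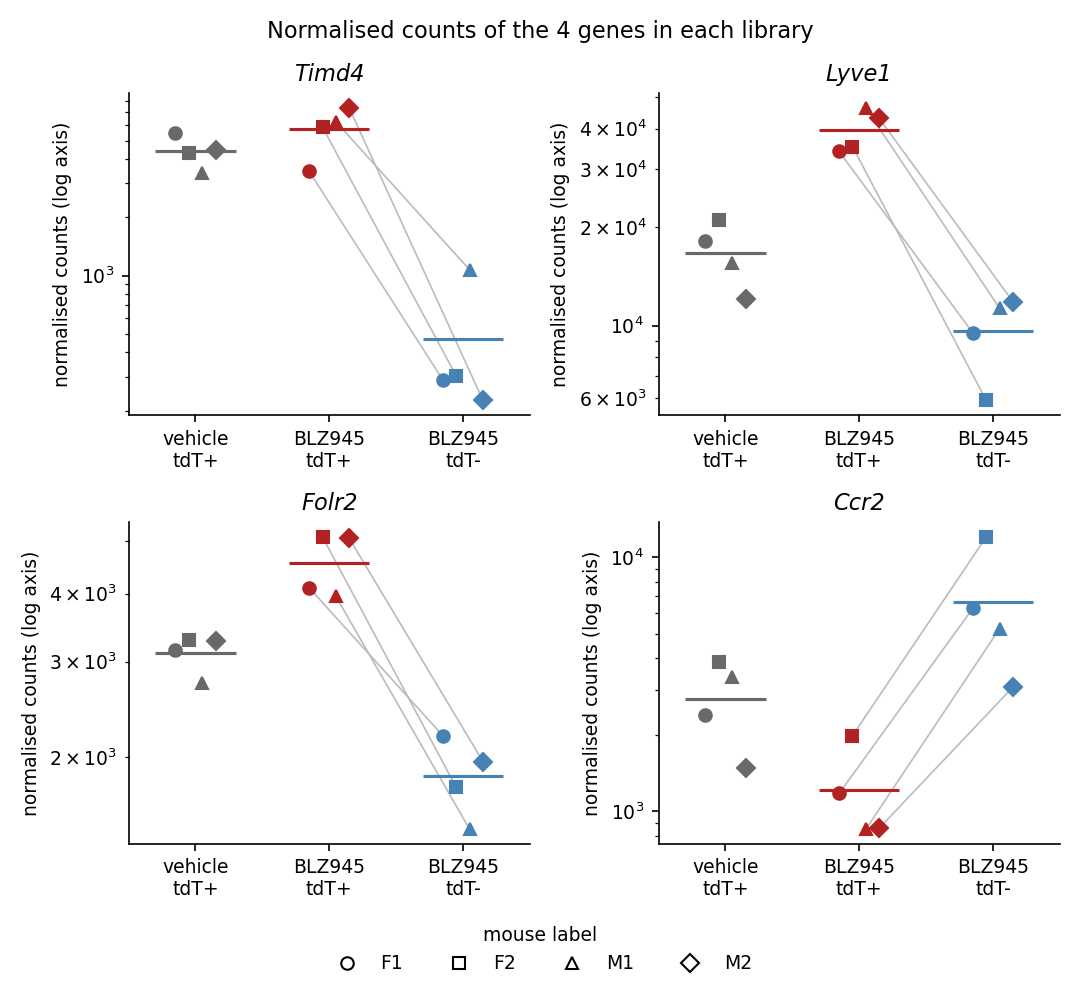
Normalised counts of Timd4, Lyve1, Folr2 and Ccr2 in each library (log axis), by group; symbols are the 4 mice of a group, horizontal lines are group means, and thin lines join both fractions of a BLZ945-treated mouse. The tdT- libraries lie below both tdT+ groups for the 3 resident markers, with Timd4 in M1 (1071) apart from the other three, while for Ccr2 the tdT- libraries lie above all BLZ945 tdT+ libraries.

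Because both fractions came from the same brain, each tdT- value can also be read as a percentage of the tdT+ value of its own mouse. Timd4 in tdT- cells stood at 8.31% of the tdT+ level in F1, 5.15% in F2, 17.1% in M1 and 3.06% in M2. Lyve1 stood at 27.9%, 16.8%, 24.5% and 27.6%, and Folr2 at 53.5%, 34.6%, 37.3% and 38.9%. In each of the 4 mice the remaining share was smallest for Timd4, larger for Lyve1 and largest for Folr2. Ccr2 reached 536%, 607%, 617% and 359% of its tdT+ level. The rise of Ccr2 was similar in F1, F2 and M1, although their absolute Ccr2 counts differed. As mean log2 differences within mice, with SD over 4 mice, these were -3.86 ± 1.05 for Timd4, -2.08 ± 0.34 for Lyve1, -1.30 ± 0.28 for Folr2 and 2.37 ± 0.36 for Ccr2. The F2 percentages and these means include tdT- F2, the library with high neutrophil and monocyte markers, whose part was not tested.

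**Figure D2:**
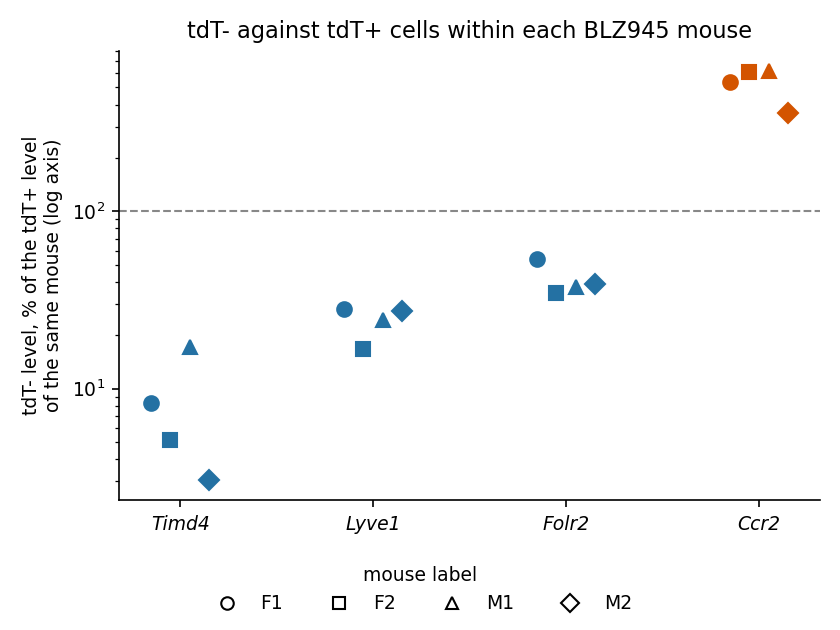
Level of each gene in tdT- cells as a percentage of the tdT+ level of the same BLZ945-treated mouse (log axis); symbols are mice, and the dashed line marks equal levels. All 4 mice lie below the line for Timd4, Lyve1 and Folr2 and above it for Ccr2, and Timd4 spreads most, from 3.06% to 17.1%.

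The second comparison set tdT+ sdCAMs of BLZ945-treated mice against tdT+ sdCAMs of vehicle-treated mice, that is, labelled cells after depletion and repopulation against labelled cells that had not been depleted. It shares the BLZ945 tdT+ libraries with the first comparison. Lyve1 rose, and the other 3 genes were not called. Vehicle tdT+ libraries F1, F2, M1 and M2 had 18153, 21081, 15504 and 12094 normalised Lyve1 counts (16708 ± 3827), all below the lowest BLZ945 tdT+ library with 34030. The 2.37-fold rise had a shrunken log2 fold change of 1.18 ± 0.21 (DESeq2 adjusted p = 4.34e-07). Genes called higher made up 0.153% of those tested. In edgeR's quasi-likelihood test the Lyve1 call was lost (adjusted p = 0.0893).

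Folr2 had 3153, 3281, 2736 and 3271 normalised counts in the vehicle libraries (3110 ± 256). All 4 values lay below the lowest BLZ945 tdT+ value of 3953, so the groups did not overlap, as for Lyve1, and 3.58% of tested genes showed that order. The difference was 1.46-fold, a shrunken log2 fold change of 0.46 ± 0.17 (DESeq2 adjusted p = 0.0451), under the fold required for a call. On the adjusted p alone, Lyve1 and Folr2 were among the 0.481% of genes that passed in this direction. For Folr2 that was lost in edgeR (adjusted p = 0.332), with TMM factors in DESeq2 (adjusted p = 0.052) and without any 1 of 7 libraries, namely the 4 vehicle libraries and BLZ945 tdT+ F1, F2 and M2 (DESeq2 adjusted p = 0.0584 to 0.212).

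Timd4 had 5454, 4302, 3409 and 4460 normalised counts in the vehicle libraries (4406 ± 838), within or just below the BLZ945 tdT+ range of 3465 to 7368. The shrunken log2 fold change was 0.04 ± 0.13 (DESeq2 adjusted p = 1.0), and the 95% interval of the unshrunken change ran from -0.39 to 1.15. A rise of about the size seen for Lyve1 lies just beyond that interval, while no change lies inside it.

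Ccr2 had 2383, 3852, 3362 and 1476 normalised counts in the vehicle libraries (2768 ± 1056). BLZ945 tdT+ libraries F1, M1 and M2 lay below all 4 of them, whereas F2 with 1981 lay above vehicle M2. The shrunken log2 fold change was -0.85 ± 0.48 (DESeq2 adjusted p = 0.120), and the unshrunken 95% interval, not adjusted for the number of genes, ran from -1.94 to -0.44. This value hung on single libraries, in both directions. Ccr2 was called lower without vehicle M2 (-1.13, DESeq2 adjusted p = 0.0384) and without BLZ945 tdT+ F2 (-1.29, DESeq2 adjusted p = 0.0122). The shrunken change dropped to -0.05 without BLZ945 tdT+ F1, -0.09 without BLZ945 tdT+ M1 and -0.11 without BLZ945 tdT+ M2. It was -0.17 without vehicle F2, -0.11 without vehicle M1 and -0.08 without tdT- F1, and over these 6 fits the DESeq2 adjusted p was 0.324 to 0.579. Without tdT- F2 it was -0.96 (DESeq2 adjusted p = 0.0329), under the fold required for a call. It was also called with the replicate block (-1.08).

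The third comparison set tdT- sdCAMs after BLZ945 against the tdT+ sdCAMs of vehicle-treated mice, and so shares libraries with both others. Timd4 fell 9.34-fold, from 3409 to 5454 normalised counts in vehicle libraries to 226 to 1071 in tdT- libraries. Its shrunken log2 fold change was -3.13 ± 0.40 (DESeq2 adjusted p = 6.40e-14), and 1.07% of tested genes were called lower. Without tdT- M1 the change was -3.98. Lyve1 (-0.71 ± 0.21, DESeq2 adjusted p = 0.00247) and Folr2 (-0.70 ± 0.16, DESeq2 adjusted p = 7.08e-05) passed the adjusted p but not the fold. In edgeR Lyve1 no longer passed it (adjusted p = 0.0573), while Folr2 did (adjusted p = 0.0083). All 3 resident markers had every tdT- library below every vehicle library, an order found for 4.87% of tested genes, and 3.49% of tested genes were lower on the adjusted p alone. Relative to cells of undepleted brains, then, Timd4 alone of the 3 was called.

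Ccr2 was higher in tdT- than in vehicle tdT+ cells, 2.40-fold, with overlapping groups. Libraries tdT- F1, F2 and M1 lay above all vehicle libraries, and tdT- M2 with 3076 lay below vehicle F2 and M1. The shrunken log2 fold change of 1.02 ± 0.42 (DESeq2 adjusted p = 0.0195) was only just large enough to be called, as 1.48% of tested genes were in this direction. Without tdT- F2 it was 0.53 (DESeq2 adjusted p = 0.184) and was not called. The call was also lost without vehicle F1 (0.86), vehicle M2 (0.73), BLZ945 tdT+ F1 (0.74) or tdT- F1 (0.74), and in edgeR (adjusted p = 0.154).

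The ratio of each resident marker to Ccr2 within a library does not depend on how libraries are scaled. Ratios were formed from counts, as log2 of (count + 1), and given as descriptions with no test. Because the genes differ in length, the value of a ratio has no absolute meaning, and only its differences between libraries were read. For Timd4 there were 2.95 to 8.60 counts per Ccr2 count in BLZ945 tdT+ libraries, 1.01 to 3.02 in vehicle tdT+ libraries and 0.0252 to 0.205 in tdT- libraries. As log2 values the group means were 2.28 ± 0.83, 0.74 ± 0.77 and -3.95 ± 1.28. The tdT- libraries lay apart from both tdT+ groups, while the tdT+ groups met at their edges.

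For Lyve1 there were 17.8 to 54.4 counts per Ccr2 count in BLZ945 tdT+, 4.61 to 8.19 in vehicle tdT+ and 0.492 to 3.85 in tdT- libraries (log2 means 5.11 ± 0.75, 2.65 ± 0.39 and 0.66 ± 1.25). For Folr2 these ranges were 2.57 to 5.90, 0.814 to 2.22 and 0.147 to 0.638 (1.99 ± 0.52, 0.26 ± 0.67 and -1.69 ± 0.88). For both genes the 3 groups formed 3 separate bands, with BLZ945 tdT+ highest, vehicle tdT+ between and tdT- lowest. This holds for Folr2 although its own level was called in 1 of the 3 comparisons.

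Between tdT- and BLZ945 tdT+ cells the ratio to Ccr2 was 75.1-fold lower for Timd4, 21.8-fold lower for Lyve1 and 12.8-fold lower for Folr2. The log2 differences of -6.23, -4.45 and -3.68 stood against pooled SDs of 1.08, 1.03 and 0.72. Without tdT- F2 they were -5.78, -3.89 and -3.32. Ccr2 is in every ratio, so a difference of Ccr2 alone moves each of them: of the other 13723 tested genes, 58.3% had ratios to Ccr2 that were lower in every tdT- library than in any BLZ945 tdT+ library, with a median log2 difference of -2.45. All 3 resident markers differed by more than that median. Between BLZ945 tdT+ and vehicle tdT+ cells the log2 differences were 1.54 for Timd4, 2.45 for Lyve1 and 1.73 for Folr2, against a median of 1.22 over the other genes, and 15.6% of those genes were apart in this direction. Between tdT- and vehicle tdT+ cells they were -4.69, -2.0 and -1.95 against a median of -1.23, and 15.8% of genes were apart. Without tdT- F2 the differences between tdT- and vehicle tdT+ cells were -4.24, -1.44 and -1.59. Lyve1 and Folr2 thus lay about equally close to the median gene in that comparison, with Timd4 farther from it, and in the second comparison Timd4 and Folr2 lay closer to the median gene than Lyve1.

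Within single BLZ945-treated mice, the Timd4 to Ccr2 ratio was lower in tdT- than in tdT+ cells by 64.3-fold in F1, 117-fold in F2, 36.1-fold in M1 and 117-fold in M2. The Lyve1 to Ccr2 ratio was lower by 19.2-, 36.1-, 25.2- and 13.0-fold and the Folr2 to Ccr2 ratio by 9.24-fold in M2 to 17.5-fold in F2. In each mouse the order Timd4, Lyve1, Folr2 was kept. The F2 values include tdT- F2, the library with high neutrophil and monocyte markers, whose part was not tested.

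**Figure D3:**
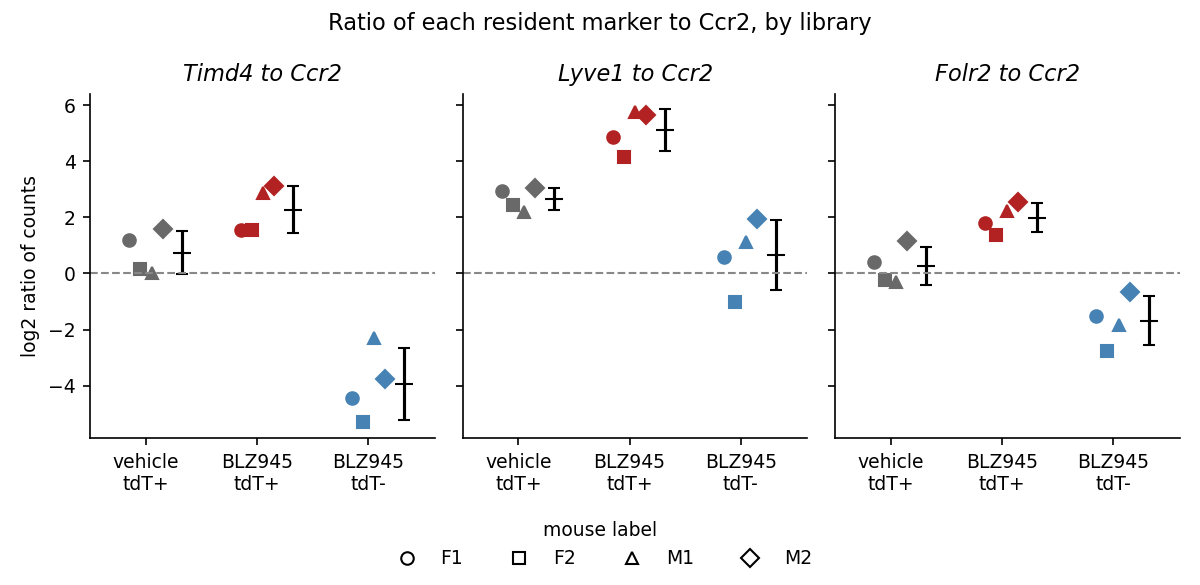
Log2 ratio of Timd4, Lyve1 and Folr2 counts to Ccr2 counts in each library, by group; symbols are mice, black bars are the group mean ± SD, and the dashed line marks equal counts. For Lyve1 and Folr2 the 3 groups do not overlap, and for Timd4 the tdT- libraries lie apart from both tdT+ groups.

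Ratios among the resident markers do not involve Ccr2. The Timd4 to Lyve1 log2 ratio was -1.91 ± 0.40 in vehicle tdT+, -2.83 ± 0.35 in BLZ945 tdT+ and -4.61 ± 0.99 in tdT- libraries, with no overlap in any of the 3 comparisons. The narrowest gap, between tdT- and BLZ945 tdT+ libraries, was 0.10 on the log2 scale. Relative to Lyve1, Timd4 was thus lower in both BLZ945 groups than in vehicle cells. In BLZ945 tdT+ cells Lyve1 was the gene of the pair that had been called, and in tdT- cells Timd4 was. The Lyve1 to Folr2 log2 ratio was 2.40 ± 0.35, 3.12 ± 0.31 and 2.35 ± 0.52, and it was apart between BLZ945 tdT+ and vehicle tdT+ libraries. The Timd4 to Folr2 log2 ratio was 0.49 ± 0.21, 0.29 ± 0.41 and -2.26 ± 1.22, overlapping between the tdT+ groups. For ratios among the resident markers the share of all genes that were apart is not given, so how common such separation is cannot be read.

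The 4 genes differed in how much they varied between mice of one group. Folr2 was the steadiest, with a coefficient of variation of 8.23% in vehicle tdT+, 13.3% in BLZ945 tdT+ and 16.5% in tdT- libraries. Over the 3538 genes averaging 1000 normalised counts or more, the median was 14.9%, 14.7% and 20.8%. Lyve1 varied by 22.9%, 14.9% and 27.8%. Timd4 varied by 19.0%, 28.7% and 85.0%. Without tdT- M1 the tdT- values of Timd4 were 272 ± 40.7. Ccr2 varied most in both tdT+ groups, by 38.2% and 43.9%, and by 57.4% in tdT- libraries, or 33.6% without tdT- F2. Counting error alone gives 0.498% to 4.65% for these genes, so depth did not limit the values. The dispersion that DESeq2 estimated for Ccr2 and for Timd4 was 5.77 and 5.75 times the trend for genes of like abundance, above that of 98.9% of tested genes. For Lyve1 it was 4.06 times the trend and for Folr2 0.397 times.

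In both fractions of the BLZ945-treated mice, F2 had the highest Ccr2, followed by F1, and M1 and M2 had less. For tdT- cells, F2 is the library with high neutrophil and monocyte markers, whose part was not tested. Among the vehicle mice, which are other animals, Ccr2 was highest in F2 and next in M1. Lyve1 was higher in F1 and F2 than in M1 and M2 in vehicle tdT+ libraries, and lower in both BLZ945 groups. Timd4 and Folr2 showed no such split that held in 2 groups or more.

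Whether the 4 genes moved together within a group was read from each library's log2 deviation from its group mean. Timd4 and Ccr2 deviated to the same side in 2 of 12 libraries, Lyve1 and Ccr2 in 3 and Folr2 and Ccr2 in 5. The pairs of resident markers were on the same side in 7 libraries (Timd4 with Lyve1, and Timd4 with Folr2) or 8 (Lyve1 with Folr2). Within groups, then, Timd4 and Ccr2 mostly lay on opposite sides of their means, while the resident markers were on the same side in somewhat more than 6 of the 12 libraries. Deviations within a group of 4 sum to 0, and pairs share libraries, so these counts are given with no test. These counts include tdT- F2. The largest deviations were 1.49 for Timd4 in tdT- M1, 1.02 and -0.94 for Ccr2 in tdT- F2 and M2, -0.82 for Ccr2 in vehicle M2 and 0.80 in BLZ945 tdT+ F2. Folr2 stayed within -0.31 and 0.26 in all 12 libraries.

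**Figure D4:**
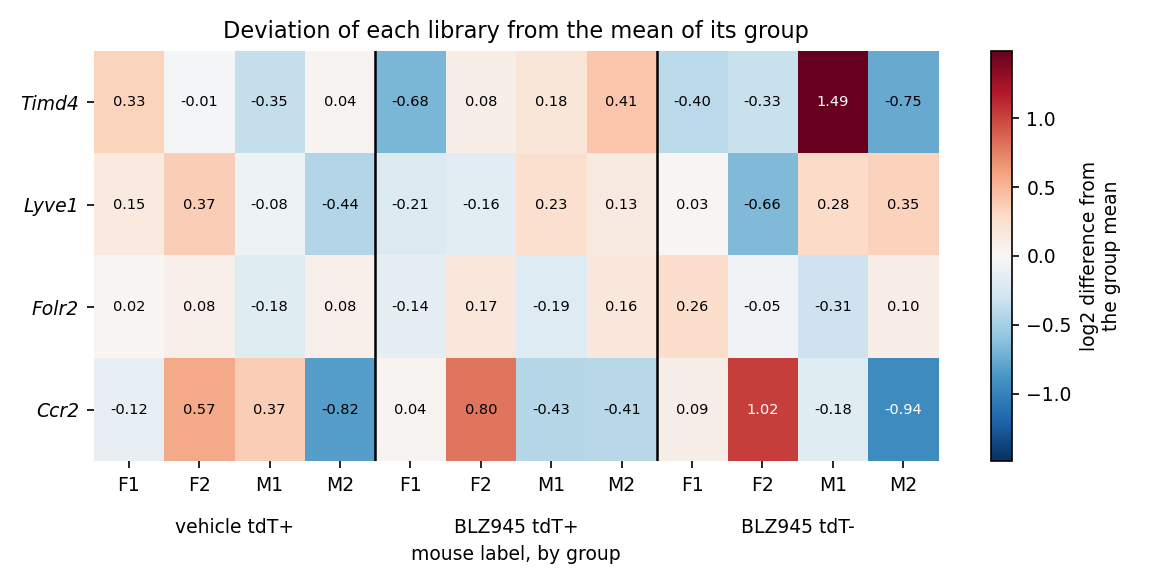
Log2 deviation of each gene from its group mean in the 12 libraries, 1 column per mouse and group and 1 row per gene; red is above and blue below the mean. Timd4 in tdT- M1 (1.49) and Ccr2 in tdT- F2 (1.02) are the largest, and Folr2 lies between -0.31 and 0.26.

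Levels of different genes were compared per exon length, as reads scaled to exon length and library total (RPKM). In vehicle tdT+ libraries Lyve1 was highest (283 ± 62.8), followed by Timd4 (100 ± 18.6) and Folr2 (99.6 ± 8.68), which did not differ beyond their spread, and by Ccr2 (20.2 ± 7.65). In BLZ945 tdT+ libraries Lyve1 reached 652 ± 101 RPKM and ranked 56th of 13724 tested genes. Folr2 (141 ± 17.1) and Timd4 (127 ± 36.0) were again close, and Ccr2 was at 8.61 ± 3.69. In tdT- libraries the order was Lyve1 (154 ± 39.3), Folr2 (56.1 ± 9.73), Ccr2 (46.7 ± 28.3, with F2 at 86.7 and the other three at 20.9 to 44.0) and Timd4 (10.1 ± 8.30). There Folr2 and Ccr2 did not differ beyond their spread, and Timd4 in M1 (22.5) overlapped with the lowest Ccr2 library (20.9). Timd4 and Ccr2 had thus changed places, while Lyve1 had the highest mean of the 4 in every group. If the Folr2 bases shared with Gm10602 had given no reads, its level per unshared kilobase would be 269.8, 382 and 152 RPKM, above Timd4 in vehicle libraries as well. On that measure Folr2 came close to Lyve1 in vehicle (283) and tdT- libraries (154), where the order of the pair then rests on differences smaller than the spread of Lyve1.

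**Figure D5:**
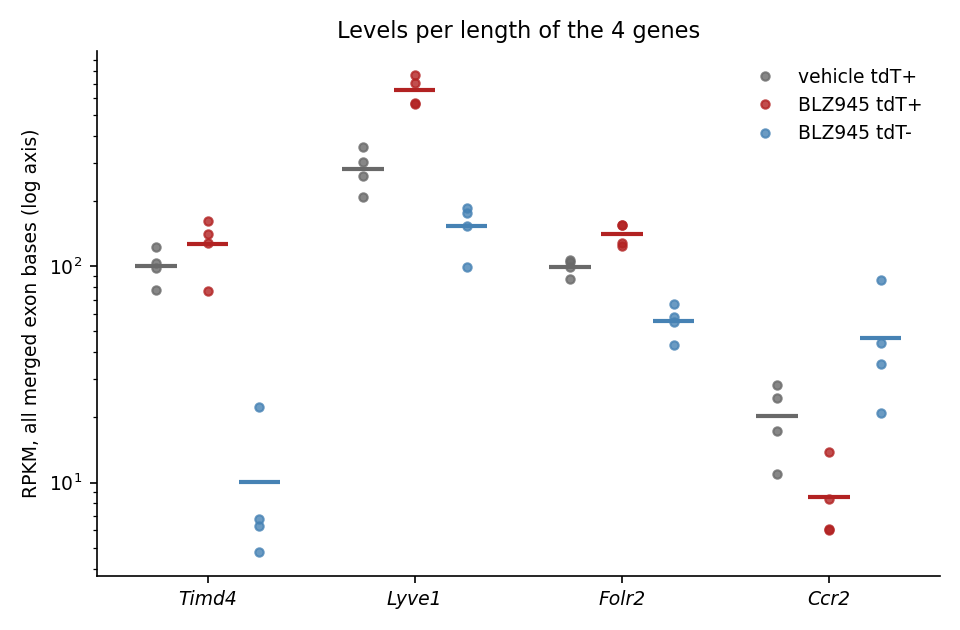
Level per exon length (RPKM, log axis) of the 4 genes, with the 3 groups side by side; points are libraries and lines are group means. Lyve1 is highest in each group, Ccr2 lowest in both tdT+ groups and Timd4 lowest in tdT- cells.

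Genes with the most similar pattern were sought over the 12 libraries, among 9305 genes averaging 100 normalised counts or more, by Pearson's r of log2 values with tdT- F2 included. The 12 points fall in 3 groups and share libraries, so r describes the group pattern and is given with no test. Closest to Timd4 were Slc15a2, a peptide transporter (r = 0.968), Lbx1, a homeobox factor (0.961), and Lpin1, a phosphatidate phosphatase (0.961). Mean Slc15a2 was 2852 normalised counts in vehicle tdT+, 2492 in BLZ945 tdT+ and 343 in tdT- libraries, and Lbx1 was at 200, 256 and 0.791. Closest to Lyve1 were C5ar1, the receptor of complement C5a (0.949), the adhesion molecule Vcam1 (0.936) and the coagulation factor F13a1 (0.935).

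Closest to Folr2 were Adgre1, a macrophage surface receptor (0.972), the lysosomal enzyme Hgsnat (0.939) and the Wnt co-receptor Lrp6 (0.936). Adgre1 stood at 39310, 48355 and 26132 normalised counts in vehicle tdT+, BLZ945 tdT+ and tdT- libraries. Closest to Ccr2 were the aspartic protease Napsa (0.935), the peroxidase Gpx1 (0.920) and Pglyrp1, a peptidoglycan-binding protein of granulocytes (0.911). Napsa stood at 106, 4.61 and 908 normalised counts. Of the mean of 584 for Pglyrp1 in tdT- libraries, most came from F2 with 2101, the library with high neutrophil markers.

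The 4 genes were then set beside lists of related genes, none of which held the 4 genes themselves. The lists were drawn up with earlier results of these data known, so their direction is no independent evidence. Of 23 genes of the resident programme, 11 were called lower and 0 higher in tdT- than in BLZ945 tdT+ cells (10 lower without tdT- F2), with a median shrunken log2 fold change of -0.97. Among them were Colec12, a scavenger receptor (-3.24 ± 0.17), Fcna, a ficolin of innate defence (-2.88 ± 0.17), and the lectins Cd209f (-2.85 ± 0.48) and Cd209g (-2.80 ± 0.38). Against vehicle tdT+ cells, 12 were called lower and 0 higher in tdT- cells (median -1.13, and 12 without tdT- F2). Between BLZ945 tdT+ and vehicle tdT+ cells 0 were called by DESeq2 or by edgeR (median 0.00), and 10 had an unadjusted p under 0.05 in DESeq2.

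Of 19 tested genes of the monocyte programme, 6 were called higher and 0 lower in tdT- than in BLZ945 tdT+ cells (median 0.07). Napsa (6.54 ± 2.14), the calcium-binding proteins S100a6 (2.87 ± 0.76) and S100a4 (2.33 ± 1.32) and the actin-binding protein Lsp1 (2.59 ± 0.32) were among them. Against vehicle tdT+ cells 3 were called higher (median 0.08). Without tdT- F2, 5 were called higher, S100a4 no longer among them, and 1 lower, Ifitm6, in the first of these comparisons, and 3 higher in the second. MHC class II genes, which present peptides to CD4+ T cells, rose together: 6 of 7 were called higher in tdT- cells in both comparisons (medians 1.30 and 1.44), also without tdT- F2. Examples against BLZ945 tdT+ cells were H2-Ab1 (1.41 ± 0.19), H2-Eb1 (1.37 ± 0.25), H2-Aa (1.31 ± 0.18) and the invariant chain Cd74 (1.30 ± 0.19).

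Lists built around the function of a single member held few calls. Of 15 tested genes of phosphatidylserine recognition, to which Timd4 belongs by function, 1 was called lower in tdT- than in BLZ945 tdT+ cells, the scavenger receptor Stab1 (-1.39 ± 0.15), and 2 higher, Havcr2 (1.13 ± 0.41), which encodes TIM-3, and the integrin Itgb3. Itgb3 had 0 counts in all BLZ945 tdT+ libraries and 57.4 to 125 normalised counts in tdT- libraries, but also 0 to 131 in vehicle libraries, and without tdT- F2 it was not called. Of 6 tested genes that bind or turn over hyaluronan, as LYVE1 does, 0 were called in any of the 3 comparisons by DESeq2 or by edgeR, and 1, 1 and 2 had an unadjusted p under 0.05 in DESeq2. Without tdT- F2, Cemip2 was called lower in tdT- cells than in either tdT+ group. The LYVE1 homologue Cd44 had 289, 334 and 510 normalised counts in vehicle tdT+, BLZ945 tdT+ and tdT- libraries and was not called. Of 16 tested genes of folate uptake and one-carbon metabolism, 1 was called higher and 0 lower in tdT- than in vehicle tdT+ cells, also without tdT- F2. It was Slc46a1, the proton-coupled folate transporter.

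The ligands of CCR2 were not called between tdT- and BLZ945 tdT+ cells. Ccl2 had 1240, 2139 and 2419 normalised counts in vehicle tdT+, BLZ945 tdT+ and tdT- libraries, and Ccl7 had 3302, 5483 and 4566. Between BLZ945 tdT+ and vehicle tdT+ cells, 0 genes of the monocyte, MHC class II, phosphatidylserine, hyaluronan, folate and CCR2 lists were called by DESeq2 or by edgeR. Those with an unadjusted p under 0.05 in DESeq2 numbered 5, 0, 4, 1, 1 and 4.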

How the data were processed

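RNA of about 500 pg per library was prepared with the SMART-Seq mRNA LP kit and sequenced on a NextSeq 2000. The authors demultiplexed with bcl2fastq (2.20), aligned with STAR (2.7.11a) and counted exon reads per gene name with featureCounts (2.0.6) against GENCODE M33, with tdTomato added, without strand, without multi-mapping reads and with the largest overlap deciding; their deposited values are raw counts. Submitters' processing notes also name DESeq2 (1.46.0). All columns could be given a sample. 1 vehicle column whose name carries M1 and another library number was taken as M2.

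From these counts, all 12 libraries were fitted with DESeq2 (1.42.0, R 4.3.3) on group alone, after removal of genes under 10 counts in at least 75% of libraries (9 of 12). Fold changes were shrunken with apeglm (1.24.0), and p-values were adjusted over all tested genes by Benjamini-Hochberg. Genes were called at an adjusted p up to 0.05 with a shrunken log2 fold change from 1 upwards in size. Alternatives included edgeR (4.0.16) and each library left out. Ratios, spread and RPKM were computed in Python 3.11.15 (numpy 2.4.6, pandas 2.3.3) and have no test. The 3 genes of highest Pearson's r with each of the 4, and called list genes of large change, were named, some after their values were seen. Scripts were tested on simulated data. Some listed genes are not reported here. The 4 genes and all lists were chosen with earlier results of these data known, and the study used Lyve1, Folr2 and Ccr2 as markers partly on these libraries. Total counts were 19969308 to 23395058. Each library is 1 mouse and fraction. The p-values rest on the spread between libraries within groups, estimated over all 3 groups together. In the first comparison they leave out the pairing of fractions by mouse, which the replicate block takes in.

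Library pairs of the same BLZ945-treated mouse are paired by the animal. Over genes, their deviations from group means had r of -0.00463 to 0.0352, against -0.0239 to 0.0255 for other pairs. With the replicate block, Ccr2 was called lower in BLZ945 tdT+ than in vehicle tdT+ cells (-1.08). All replicates differed beyond counting noise (smallest chi-square per degree of freedom 45.6). Xist and Y-linked genes matched the letters F and M, except for 112 counts of Kdm5d in vehicle F2, and leaving that library out changed no call of the 4 genes.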

Additional observations from a re-analysis of the deposited data

Results flagged for a closer look

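Timd4 in library tdT- M1 lay far from the other tdT- libraries, with 1071 normalised counts against 226 to 302. The gap to the nearest library was 0.909 of the range of the group. Of 21 groups of 4 values examined, this was the 1 that stood out in this way, and chance gives about 1 in 20. The same library had the highest sum of microglia markers, 21513 CPM, but M2, next with 16237 CPM, had the lowest Timd4 of the 4. Their part in the result was not tested. Without tdT- M1 Timd4 remained called lower than in BLZ945 tdT+ cells (-4.37).

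For Lyve1, the difference between tdT- and vehicle tdT+ cells varied with the letter F or M of the mouse label in DESeq2 but did not pass in edgeR. It was -1.38 on the log2 scale in F and -0.24 in M, and the interaction was 1.09 ± 0.28 (DESeq2 adjusted p = 0.00836), each letter standing for 2 mice per group. In edgeR it was 1.09 with an adjusted p of 0.519 (unadjusted p = 0.0042). Over all tested genes, 392 passed this interaction in DESeq2 and 0 in edgeR, where 1103 had an unadjusted p under 0.05, so Lyve1 was 1 of many in the former. Between BLZ945 tdT+ and vehicle tdT+ cells the difference was 0.82 in F and 1.70 in M, an interaction of 0.87 ± 0.28 (DESeq2 adjusted p = 0.183). Both comparisons share the vehicle libraries, in which F1 and F2 held more Lyve1 than M1 and M2. The test was chosen after the values had been seen.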

How the results depend on the processing

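Timd4, Lyve1, Folr2 and Ccr2 were called in tdT- against BLZ945 tdT+ cells under all 20 alternatives, the replicate block included, with log2 fold changes of -4.37 to -3.21 for Timd4, -2.12 to -1.84 for Lyve1, -1.36 to -1.17 for Folr2 and 1.86 to 2.68 for Ccr2. Between BLZ945 tdT+ and vehicle tdT+ cells 1 of the 4 genes was called. The number was 2 on the adjusted p alone (Lyve1 and Folr2), 0 in edgeR, and 2 (with Ccr2) with the letter of the mouse label as covariate and with the replicate block, though vehicle mice share only a label with the others. It was 1 to 2 when single libraries were left out. Between tdT- and vehicle tdT+ cells 2 genes were called, against 4 on the adjusted p alone, 1 in edgeR, 1 with TMM factors, 1 with no filter and 1 with the letter, Ccr2 being the gene lost. It was 1 to 2 when single libraries were left out, and 2 with the replicate block. The replicate block changed no other call of the 4 genes. No fold change turned its direction, and 99 of 99 ratio alternatives kept theirs. The order of levels per length was kept in 3 of 3 groups with TPM and in 2 of 3 with unshared exon bases, an alternative added after seeing the data, as were the counts without tdT- F2 and the F and M interaction. Over all genes, edgeR called 221, 7 and 273 against 309, 23 and 350 in the 3 comparisons, the adjusted p alone 875, 131 and 928, unshrunken fold changes 487, 67 and 544, no filter 373, 45 and 410 and the replicate block 372, 57 and 368. Depth limited none of the values of the 4 genes, and 4 libraries a group left Ccr2 and Timd4 dependent on single mice.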

Other observations

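Ligands of CCR2 were measured in the same macrophages. Ccl12, a mouse chemokine that binds CCR2, had 7247 ± 1133 normalised counts in vehicle tdT+, 14298 ± 1406 in BLZ945 tdT+ and 12717 ± 3569 in tdT- libraries (SD, n = 4). It passed the adjusted p against vehicle in both BLZ945 groups, with shrunken log2 fold changes of 0.91 ± 0.19 (DESeq2 adjusted p = 2.34e-05) and 0.75 ± 0.18 (DESeq2 adjusted p = 0.000277), under the fold required for a call. Between tdT- and BLZ945 tdT+ cells it differed by -0.12 ± 0.16 (DESeq2 adjusted p = 0.801), while Ccr2 differed 5.48-fold. Ccl8, a further chemokine gene placed in the CCR2 list, had 7672, 6140 and 7749 normalised counts and passed in none of the 3 comparisons. Ccl12 and Ccl8 were singled out after their values had been seen.

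Genes linked to phosphatidylserine and hyaluronan also passed the adjusted p, in either direction. Gas6, which bridges phosphatidylserine to the receptors Mertk and Axl, had 30812 ± 500, 35724 ± 2621 and 19252 ± 3008 normalised counts in vehicle tdT+, BLZ945 tdT+ and tdT- libraries, a shrunken log2 fold change of -0.88 ± 0.11 between tdT- and BLZ945 tdT+ cells (DESeq2 adjusted p = 2.62e-14). Tlr4, counted here among genes that sense hyaluronan fragments, had 5766 ± 1066, 7287 ± 759 and 3798 ± 557 (-0.89 ± 0.16, DESeq2 adjusted p = 1.04e-07). Itgb5, an integrin subunit of phosphatidylserine recognition, went the other way, with 13705 ± 2136, 15905 ± 1281 and 28635 ± 6518 (0.80 ± 0.15, DESeq2 adjusted p = 1.36e-06). Against vehicle tdT+ cells it was called higher in tdT- cells (1.03 ± 0.15, DESeq2 adjusted p = 2.52e-10). None of the 3 reached the fold required for a call between tdT- and BLZ945 tdT+ cells, and all were singled out after their values had been seen.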
